A study of Homo sapiens with 9 samples.

Results

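Imprinted genes are expressed from only 1 of the 2 parental copies. The 10 imprinted genes described here were a list given by name, *IGF2*, *H19*, *MEG3*, *DLK1*, *PEG3*, *PEG10*, *MEST*, *SNRPN*, *PLAGL1* and *CDKN1C*, and each was found by its symbol among the 60708 genes counted. The study asked what the loss of *SNAI1*, a zinc finger repressor that drives epithelial-mesenchymal transition, does to gene expression in the triple-negative, basal-type breast cancer line MDA-MB-231. RNA-sequencing was performed on 9 libraries, all labelled as untreated MDA-MB-231 cells, with 3 libraries each for WT and for the *SNAI1*-KO clones CS16 and CS19. Each clone grew from a single cell after transfection with Cas9, a pool of 3 guides (against exon-1, exon-2 and the exon-2/intron-2 junction) and HDR plasmids, followed by puromycin selection. CS16 and CS19 are thus 1 clone each, WT was not stated to be cloned or to have gone through selection, and a property of a clone cannot be told apart from the effect of the knockout. Nothing in the labels says that the 3 libraries of a group came from separate cultures, so p-values measure the spread between these libraries, which may be technical.

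At an imprinted locus, DNA methylation set in the egg or the sperm marks a control region, and the mark decides which parental copy is transcribed. Neighbouring imprinted genes usually share 1 control region, often with a non-coding RNA of the opposite parental origin. Many imprinted genes act on growth: the paternally expressed ones described here (*IGF2*, *DLK1*, *PEG3*, *PEG10*, *MEST*, *SNRPN*, *PLAGL1*) include growth factors and regulators of placenta and fat, and the maternally expressed ones (*H19*, *MEG3*, *CDKN1C*) include non-coding RNAs and a cell cycle inhibitor. Read counts per gene do not separate the parental copies, so the values below are levels of both copies together and say nothing of imprinting itself.

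The libraries held between 19527195 and 28627777 counted read pairs. The targeted gene, *SNAI1*, had 16, 38 and 21 counts in the WT libraries, 26, 40 and 49 in CS16 and 57, 94 and 94 in CS19, and its log2 fold change of KO against WT was 0.89 (SE 0.42, adjusted p = 0.0838 in edgeR's quasi-likelihood test), so its counts were not lower in the libraries labelled KO. The tumour suppressor *CDKN2A* and its neighbours *CDKN2B* and *MTAP* had 0 counts in the 3 WT libraries and a summed level of 164 to 182 CPM (read counts scaled to the normalized library size) in the 6 clone libraries. The 6 markers of basal B breast cancer cells summed to between 5356 and 6190 CPM in WT, to between 522 and 544 CPM in CS16 and to between 504 and 538 CPM in CS19, with *CD44*, a defining one, at or under the floor of 3 counts a group in both clones. The 7 mammary luminal markers summed to between 1464 and 2135 CPM in WT and to between 56.4 and 98.7 CPM in the clones, with *KRT19* at or under the floor there. Of these 7, 6 were called lower in both clones and 1, *FOXA1*, was called higher, with 0, 0 and 2 counts in WT and 63 to 494 in the clones. Of 6 embryonic kidney markers 3 were called higher in both clones (*LHX1*, *EYA1* and *HOXD11*) and *PAX8* lower, and their sum was 52.6 to 70.2 CPM in WT and 106 to 133 CPM in the clones. The counts of *SNAI1* and *CDKN2A* go against what the labels of the clone libraries say, a knockout made in MDA-MB-231 cells. The identity of these libraries is therefore in doubt. Counts over the whole gene cannot show a deletion within *SNAI1*, and such a deletion was not tested for here. The paper reports lower *SNAI1* mRNA by exon-level RT-qPCR, no detectable SNAI1 protein, and *SNAI1* deletions in aligned reads of the clones. It also reports lower *CD44* and *EGFR* mRNA and higher *FOXA1* mRNA and protein in the clones. The changes of *CD44*, *EGFR* and *FOXA1* here have the same direction and are not counted against the labels. The paper further describes *KRT8* and *AGR2* as behaving like its basal markers, and here both were called lower in both clones. WT, CS16, CS19 and KO below mean the libraries so labelled, and every direction against WT is one between them. The part of these differences in the results below was not tested. Within WT, library 2 stood apart from libraries 1 and 3.

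A microRNA, miR-335, is encoded inside *MEST*, and its mature sequences are shown because this host gene is one of those the results turn on. The hairpin lies in an intron of *MEST*, the mature strands are from RefSeq (GRCh38.p14, plus strand, chr7:130496126-130496148 and chr7:130496162-130496183), and the capitals mark the seed, bases 2 to 8. The microRNA itself was not measured by these libraries, whose entry for it had 0 counts in all 9.
hsa-miR-335-5p: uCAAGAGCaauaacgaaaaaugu
hsa-miR-335-3p: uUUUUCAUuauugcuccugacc

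RefSeq promoter windows were matched for 5 of the 10 genes, *H19*, *MEG3*, *MEST*, *SNRPN* and *PLAGL1*. Windows of 250 bases before a transcription start are shown for *MEST* and *PLAGL1*, the pair that moved in opposite directions, because CpG dinucleotides carry the methylation mark at such loci. CpGs are in capitals and all windows are on the strand of the gene (GRCh38.p14). Which windows carry the methylation mark was not tested. Windows that overlap an exon of the gene are not shown. Among those left out is the *PLAGL1* window with the most CpGs, 32, at chr6:144008260-144008509, at the start of the non-coding RNA *HYMAI*. For each gene the CpG-richest and a CpG-poorest of the remaining windows are given, *MEST* at chr7:130491835-130492084 with 20 CpGs and at chr7:130491079-130491328 with 11, and *PLAGL1* on the minus strand at chr6:144064600-144064849 with 21 and at chr6:144055263-144055512 with 1.
MEST, 20 CpGs: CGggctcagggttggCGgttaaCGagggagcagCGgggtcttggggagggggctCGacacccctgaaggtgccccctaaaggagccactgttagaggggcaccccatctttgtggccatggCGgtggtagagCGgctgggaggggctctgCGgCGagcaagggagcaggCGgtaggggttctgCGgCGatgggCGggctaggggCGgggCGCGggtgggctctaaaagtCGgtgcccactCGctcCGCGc
MEST, 11 CpGs: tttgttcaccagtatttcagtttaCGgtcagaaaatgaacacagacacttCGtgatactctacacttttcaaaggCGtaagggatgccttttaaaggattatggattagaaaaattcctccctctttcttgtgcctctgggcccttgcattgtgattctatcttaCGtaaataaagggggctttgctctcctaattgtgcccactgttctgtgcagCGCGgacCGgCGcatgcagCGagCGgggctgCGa
PLAGL1, 21 CpGs: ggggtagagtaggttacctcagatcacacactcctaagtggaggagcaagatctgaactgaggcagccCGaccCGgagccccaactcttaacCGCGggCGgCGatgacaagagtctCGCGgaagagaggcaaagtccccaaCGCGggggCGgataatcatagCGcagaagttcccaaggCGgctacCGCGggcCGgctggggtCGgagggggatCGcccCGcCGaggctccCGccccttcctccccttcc
PLAGL1, 1 CpG: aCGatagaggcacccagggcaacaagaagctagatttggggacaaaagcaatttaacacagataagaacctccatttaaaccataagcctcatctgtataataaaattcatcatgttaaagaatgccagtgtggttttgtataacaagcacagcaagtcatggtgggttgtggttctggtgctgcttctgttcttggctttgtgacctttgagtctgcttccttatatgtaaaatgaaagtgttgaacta

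Over 35116 such windows the median was 11 CpGs. The 5 *MEST* windows ranged from 9 to 20 and the 5 *PLAGL1* windows from 1 to 32. The letters CAGGTG, an E-box that *SNAI1* is known to bind, were searched on both strands. They occurred in none of the 5 *MEST* and none of the 5 *PLAGL1* windows, in 1 of 4 *SNRPN* windows, in the single *H19* window and in none of the 3 *MEG3* windows, against 17.5% of all windows.

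Of the 10 genes, 6 were at or near 0 in all 9 libraries. *IGF2*, the fetal insulin-like growth factor, had 1 count in all, in CS19 library 3. *H19*, the non-coding RNA that shares the control region of *IGF2* at 11p15.5, had 0, 5 and 1 counts in WT, 3, 2 and 0 in CS16 and 0, 3 and 1 in CS19. It was the one gene of these 6 with more than 2 counts in a library, and its groups overlapped. *MEG3*, the non-coding RNA of the 14q32 domain, had 1 count in WT library 2 and 1 in CS19 library 3. *DLK1*, its paternally expressed neighbour and a Notch-like transmembrane protein that holds back fat cell differentiation, had 2 counts in WT library 2 and none elsewhere. *PEG3*, a zinc finger protein of 19q13.43, had 1 count each in CS16 libraries 2 and 3. *SNRPN*, a splicing protein gene of the Prader-Willi region at 15q11-q13, had 1 count in WT library 1.

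Together these 6 genes had 23 counts in 9 libraries. Pooled over all libraries, *H19* was at 0.0752 CPM with an upper 95% counting limit of 0.124 CPM, and the upper limits of the other 5 lay between 0.0279 and 0.0362 CPM. A count of 3 over the 9 libraries corresponds to 0.0150 CPM. These limits and intervals cover counting error only. No difference between groups was detectable at this depth for any of the 6, and none entered the tests.

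The counting rule bears on 3 of these low values. Pairs that overlapped several genes were not counted, and 72.1% of the exon bases of *IGF2*, 50.9% of those of *PEG3* and 43.9% of those of *SNRPN* are shared with other annotated genes. *H19*, *MEG3* and *DLK1* share 7.35%, 2.58% and 0% of theirs. The unshared exon bases of each gene had only the counts given above. The genes that share most with them (ENSG00000284779 with *IGF2*, ENSG00000286125 with *PEG3* and *SNURF* with *SNRPN*) had 0 counts in all 9 libraries, as had *INS-IGF2* and *ZIM2*. Pairs within the shared bases would, however, have been counted for none of the genes.

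The remaining 4 genes were expressed in at least 1 group. *PEG10*, *MEST* and *CDKN1C* were lower and *PLAGL1* was higher in both clones than in WT. In none of the 4 did any of the 6 clone libraries overlap with the 3 WT libraries. How many of all genes were without overlap was not counted, so this does not set the 4 apart. All 4 passed the adjusted p in KO against WT, as did 63.7% of the 19631 genes tested. *MEST* passed the filter on low counts only through WT and *PLAGL1* only through the clones, so that these 2 had to differ between the groups. *PEG10* and *CDKN1C* had over 10 counts in every library. A gene was called when its adjusted p was below 0.05 and its log2 fold change reached 2 up or down. At these cut-offs 1 of the 4 genes tested was called higher in KO than in WT and 2 were called lower. Of all 19631 genes tested, 12.6% were called higher and 14.3% lower. The one called higher, *PLAGL1*, and *MEST* among those called lower are the 2 that had to differ. In CS16 against WT 1 of the 4 tested was called higher and 2 lower (11.8% and 15.3% of all genes tested). In CS19 against WT 1 of the 4 tested was called higher and 2 lower (12.0% and 14.4%). The comparisons of the 2 clones share the WT libraries. In bulk RNA, fewer expressing cells and less RNA per cell cannot be told apart.

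*PEG10* (chr7:94656325-94669695, plus strand, GRCh38) is a gene of retrotransposon origin that is needed for the placenta and is often expressed in tumours. Its level was 101, 125 and 92.3 CPM in the WT libraries, 0.834, 1.29 and 0.716 CPM in CS16 and 1.32, 0.694 and 1.24 CPM in CS19. All 6 clone libraries were thus far below the lowest WT library, with 16 to 38 counts each against 1799 to 2188 in WT, and the clones overlapped with each other. The means were 106 ± 16.8 CPM (SD, n = 3) in WT, 0.946 ± 0.302 CPM (SD, n = 3) in CS16 and 1.09 ± 0.342 CPM (SD, n = 3) in CS19. In KO against WT *PEG10* fell by 6.70 on the log2 scale (SE 0.23, adjusted p = 1.14e-09 in edgeR's quasi-likelihood test), that is 104-fold. It fell by 6.78 (SE 0.31) in CS16 and by 6.56 (SE 0.33) in CS19, with adjusted p of 7.25e-06 and 6.42e-06. The difference between the clones, -0.22 (SE 0.34, adjusted p = 0.682), did not pass the test.

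*MEST* (chr7:130486171-130506465, plus strand), also called PEG1, encodes a hydrolase-like protein that rises in expanding fat tissue. Its level was 36.8, 13.5 and 37.0 CPM in WT, 0.245, 0.0477 and 0.398 CPM in CS16 and 0.182, 0.390 and 0.295 CPM in CS19. WT library 2 had 237 counts against 747 and 722 in the other two, and the clone libraries had between 1 and 10. The means were 29.1 ± 13.5 CPM (SD, n = 3) in WT, 0.230 ± 0.176 CPM (SD, n = 3) in CS16 and 0.289 ± 0.104 CPM (SD, n = 3) in CS19. *MEST* fell by 6.75 on the log2 scale in KO against WT (SE 0.42, adjusted p = 8.3e-08), that is 108-fold, by 6.87 in CS16 (SE 0.67, adjusted p = 0.000128) and by 6.58 in CS19 (SE 0.54, adjusted p = 4.95e-05). Without CS16 library 3 the value in CS16 was -7.56. Of its exon bases 27.6% are shared with other genes, all on the opposite strand, and strand was not used in the counting. Too few counts remained in the clones to test *MEST* between them.

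*PLAGL1* (chr6:143940300-144064599, minus strand) encodes the zinc finger protein ZAC1, which arrests the cell cycle and regulates other imprinted genes. Its level was 0.0492, 0.114 and 0 CPM in WT, from 1, 2 and 0 counts, against 28.9, 31.2 and 28.8 CPM in CS16 and 17.6, 17.6 and 14.5 CPM in CS19. All 6 clone libraries had at least 386 counts. The means were 0.0544 ± 0.0571 CPM (SD, n = 3) in WT, 29.6 ± 1.38 CPM (SD, n = 3) in CS16 and 16.5 ± 1.76 CPM (SD, n = 3) in CS19. Since WT held only 3 counts, the change is given as a ratio of normalized summed counts with its exact 95% counting interval. The ratio of KO to WT was 431 (147 to 2090, adjusted p = 1.33e-07 in edgeR's quasi-likelihood test), that of CS16 to WT was 566 (193 to 2745, adjusted p = 9.88e-06) and that of CS19 to WT was 312 (107 to 1516, adjusted p = 1.37e-05). The fitted log2 fold change of KO against WT was 8.63 with all libraries and 9.55 without WT library 2.

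*PLAGL1* also differed between the clones. Every CS16 library was above every CS19 library, and the log2 fold change of CS16 against CS19 was 0.84 (SE 0.095, adjusted p = 2.58e-05 in edgeR's quasi-likelihood test), or 1.79-fold. With 1 estimate of the spread over all 3 groups the value was again 0.84 but the adjusted p was 0.0765, so this difference is past the threshold only when WT is left out of the fit.

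*CDKN1C* (chr11:2883213-2885775, minus strand) encodes p57, an inhibitor of cyclin-dependent kinases that restrains growth. Its level was 7.44, 7.92 and 8.36 CPM in WT, 2.45, 2.24 and 2.23 CPM in CS16 and 3.46, 2.69 and 3.24 CPM in CS19. The 3 groups did not overlap, with WT the highest and CS16 the lowest. The means were 7.90 ± 0.461 CPM (SD, n = 3), 2.31 ± 0.125 CPM (SD, n = 3) and 3.13 ± 0.397 CPM (SD, n = 3). *CDKN1C* fell by 1.54 on the log2 scale in KO against WT (SE 0.20, adjusted p = 4.09e-05), that is 2.91-fold, which passed the adjusted p but not the fold cut-off. It fell by 1.75 in CS16 (SE 0.21, adjusted p = 0.000376) and by 1.30 in CS19 (SE 0.22, adjusted p = 0.00169). The difference between the clones, -0.45 (SE 0.19), had an adjusted p of 0.106. None of its exon bases are shared with another gene.

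Between the clones, 0 of the 3 genes tested were called by edgeR's quasi-likelihood test, against 0.633% of all genes called higher and 0.496% called lower in CS16 than in CS19. By the unadjusted p below 0.05, 2 of the 3 differed (*PLAGL1* and *CDKN1C*), 1 passed the adjusted p, and DESeq2 called 0.

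Levels of different genes were compared per kilobase of exon. In WT the order was *PEG10* with 15.8 CPM per kb, *MEST* with 6.11, *CDKN1C* with 3.19 and *PLAGL1* with 0.00623. The libraries of *PEG10*, 13.8 to 18.6 CPM per kb, lay above all those of *MEST*, 2.83 to 7.77, while *MEST* and *CDKN1C*, 3.00 to 3.37, overlapped through WT library 2. In CS16 the order was *PLAGL1* with 3.39 CPM per kb, *CDKN1C* with 0.931, *PEG10* with 0.141 and *MEST* with 0.0483. In CS19 it was *PLAGL1* with 1.90, *CDKN1C* with 1.26, *PEG10* with 0.162 and *MEST* with 0.0606. In both clones each of these genes lay above the next in every library, *PEG10* and *MEST* included (0.107 to 0.193 against 0.01 to 0.0835 in CS16, and 0.104 to 0.197 against 0.0382 to 0.0819 in CS19). Of these 4 genes, *CDKN1C* had the least change over the 3 groups.

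Imprinted genes of the same domains were read from a list of 53 further imprinted genes, 50 of which matched a gene in the files. Of these, 34 were tested in KO against WT, with 6 called higher and 7 called lower, against 12.6% and 14.3% of all genes tested. Past the adjusted p alone were 23 of them, or 67.6%, near the 63.7% of all genes. Their median log2 fold change was -0.69, and that of all genes tested was -0.00. In CS16 32 were tested, with 5 higher and 7 lower (11.8% and 15.3% of all genes) and a median of -0.64, and in CS19 34 were tested, with 6 higher and 7 lower (12.0% and 14.4%) and a median of -0.49. Of the 13 called in KO against WT, 11 passed the filter on low counts through 1 side alone and so had to differ, *PHLDA2*, *MESTIT1*, *CPA4*, *ATP10A* and *NAP1L5* through WT and *KCNQ1*, *KLF14*, *MKRN3*, *HYMAI*, *GNAS-AS1* and *ZNF597* through the clones. Called in the same direction in both clones were 5 higher (*KCNQ1*, *MKRN3*, *HYMAI*, *GNAS-AS1* and *ZNF597*) and 7 lower (*PHLDA2*, *TFPI2*, *MESTIT1*, *CPA4*, *ATP10A*, *NAP1L5* and *NNAT*). *KLF14* was called in KO and in CS19 but not in CS16, and its value in KO against WT, 2.04, went under the cut-off without WT library 1 (1.90). *NNAT* lost its call without WT library 2, with a log2 fold change of -1.42 in KO against WT in place of -2.33.

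The neighbours of *CDKN1C* at 11p15.5 did not move alike. *PHLDA2*, a maternally expressed inhibitor of placental growth, fell by 6.21 on the log2 scale in KO against WT (SE 0.31, adjusted p = 1.49e-08), from 14.7, 34.4 and 23.2 CPM in WT to between 0.199 and 0.434 CPM in the clones. *KCNQ1*, a potassium channel gene, rose by 4.60 (SE 0.75, adjusted p = 0.000222), from 0, 0.171 and 0.0513 CPM in WT to between 0.876 and 2.69 CPM in the clones. Its value was 5.91 without WT library 2, 4.01 without WT library 1. *KCNQ1OT1*, the paternally expressed antisense RNA that silences this domain, was at 145, 151 and 86.8 CPM in WT, 139 ± 20.5 CPM (SD, n = 3) in CS16 and 156 ± 20.4 CPM (SD, n = 3) in CS19, and its log2 fold change of 0.20 (adjusted p = 0.38) did not pass the test. *SLC22A18*, an organic cation transporter gene, had a log2 fold change of -0.78 (adjusted p = 0.11).

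At 7q21.3 *SGCE*, a sarcoglycan gene that starts back to back with *PEG10*, was far less changed than *PEG10*. It was at 54.1, 22.4 and 56.7 CPM in WT and between 24.1 and 31.7 CPM in the clones, so that WT library 2 lay below the clone libraries, and its log2 fold change of KO against WT was -0.71 (adjusted p = 0.0228, and 0.0964 and 0.176 in the separate clones). *PPP1R9A*, a neuronal actin-binding protein gene, had a log2 fold change of 0.22 in CS16 (adjusted p = 0.358) and of 1.93 in CS19 (adjusted p = 0.000119), under the fold cut-off and 2.02 without WT library 1. *TFPI2*, an inhibitor of serine proteases, fell by 4.11 in KO against WT (SE 0.56, adjusted p = 5.49e-05), with 62.1, 28.3 and 80.5 CPM in WT, 1.05 to 1.32 CPM in CS16 and 4.41 to 6.12 CPM in CS19. CS16 lay below CS19 in every library, and *TFPI2* was the one of 10 further imprinted genes past the adjusted p between the clones that was also called, with a log2 fold change of -2.18 (SE 0.20, adjusted p = 4.55e-06). These 10 were among 27 tested, or 37.0%, where 27.4% of all genes tested between the clones passed the adjusted p.

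At 7q32.2 *MESTIT1*, an antisense RNA at the start of *MEST*, had 21 counts in each WT library, 0 in each CS16 library and 0, 0 and 1 in CS19. The ratio of WT to KO in normalized counts was 156 (95% counting interval 27.0 to 6258). The fitted log2 fold change moved from -6.46 to -7.55 without CS19 library 3, and 23.3% of its exon bases are shared, in part with *MEST* itself. Most of *MESTIT1* lies within *MEST* and strand was not used, so its RNA cannot be told apart from unspliced RNA of *MEST* in these counts. *CPA4*, a carboxypeptidase gene, fell by 8.40 (SE 0.33, adjusted p = 2.33e-09), from 49.2, 46.6 and 50.9 CPM in WT to between 0 and 0.229 CPM in the clones. *COPG2*, a coatomer subunit gene whose end overlaps *MEST*, was at 43.9 to 50.7 CPM in WT and 52.3 to 64.3 CPM in the clones, with a log2 fold change of 0.31 (adjusted p = 0.0598). *KLF14*, a maternally expressed transcription factor gene, was low throughout, with 6 to 8 counts in WT and 20 to 65 in the clones, and had log2 fold changes of 1.63 in CS16 and 2.42 in CS19.

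At 6q24 *HYMAI*, the non-coding RNA that lies within *PLAGL1*, had 1, 0 and 0 counts in WT and between 31 and 54 counts in every clone library. The ratio of KO to WT was 96.9 (95% counting interval 17.2 to 3844), and the fitted log2 fold change moved from 6.22 to 8.27 without WT library 1, the one with that count. *HYMAI* shares 289 exon bases with *PLAGL1* on the same strand, and pairs within them were counted for neither gene. The rest of *HYMAI* lies between exons of *PLAGL1*, so RNA of *HYMAI* and unspliced RNA of *PLAGL1* cannot be told apart in these counts.

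At 15q11-q13, where *SNRPN* itself had 1 count, the other genes went in different directions. *MKRN3*, a ubiquitin ligase gene that holds back puberty, rose by 4.51 on the log2 scale in KO against WT (SE 0.23, adjusted p = 1.46e-08), from 0.394, 0.513 and 0.410 CPM to between 9.35 and 11.1 CPM. *ATP10A*, a lipid flippase gene, had 327, 567 and 298 counts in WT and 0 in all 6 clone libraries, so that it was at least 984-fold lower against a floor of 3 counts over the group. *SNHG14*, the long RNA that runs from *SNRPN* over *UBE3A*, was at 2.56 to 4.58 CPM in WT and 1.04 to 2.36 CPM in the clones (log2 fold change -0.85, adjusted p = 0.0244, and 0.0579 and 0.14 in the separate clones). *UBE3A*, the Angelman syndrome ubiquitin ligase, was at 101 to 141 CPM in WT and 102 to 126 CPM in the clones, with a log2 fold change of -0.15 (adjusted p = 0.37).

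Of imprinted genes elsewhere, *ZNF597*, a zinc finger gene, had 3, 1 and 0 counts in WT and between 158 and 256 in each clone library, a rise of 6.79 on the log2 scale (SE 0.44, adjusted p = 1.15e-07). The value was 7.99 without WT library 1. *GNAS-AS1*, the antisense RNA of the *GNAS* locus, had 1 count in WT and 47 to 92 in each clone library, a ratio of KO to WT of 173 (95% counting interval 30.9 to 6844), and the fitted log2 fold change moved from 7.02 to 9.09 without WT library 2. *GNAS* itself, the stimulatory G protein subunit gene, had a log2 fold change of -0.40 (adjusted p = 0.0511). *NAP1L5*, a gene of the nucleosome assembly protein family, had 22, 25 and 42 counts in WT and between 0 and 2 in the clones, a fall of 4.83 (SE 0.52, adjusted p = 8.07e-06). Without CS16 library 1, its log2 fold change of CS16 against WT moved from -5.39 to -8.00.

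**Figure D1:**
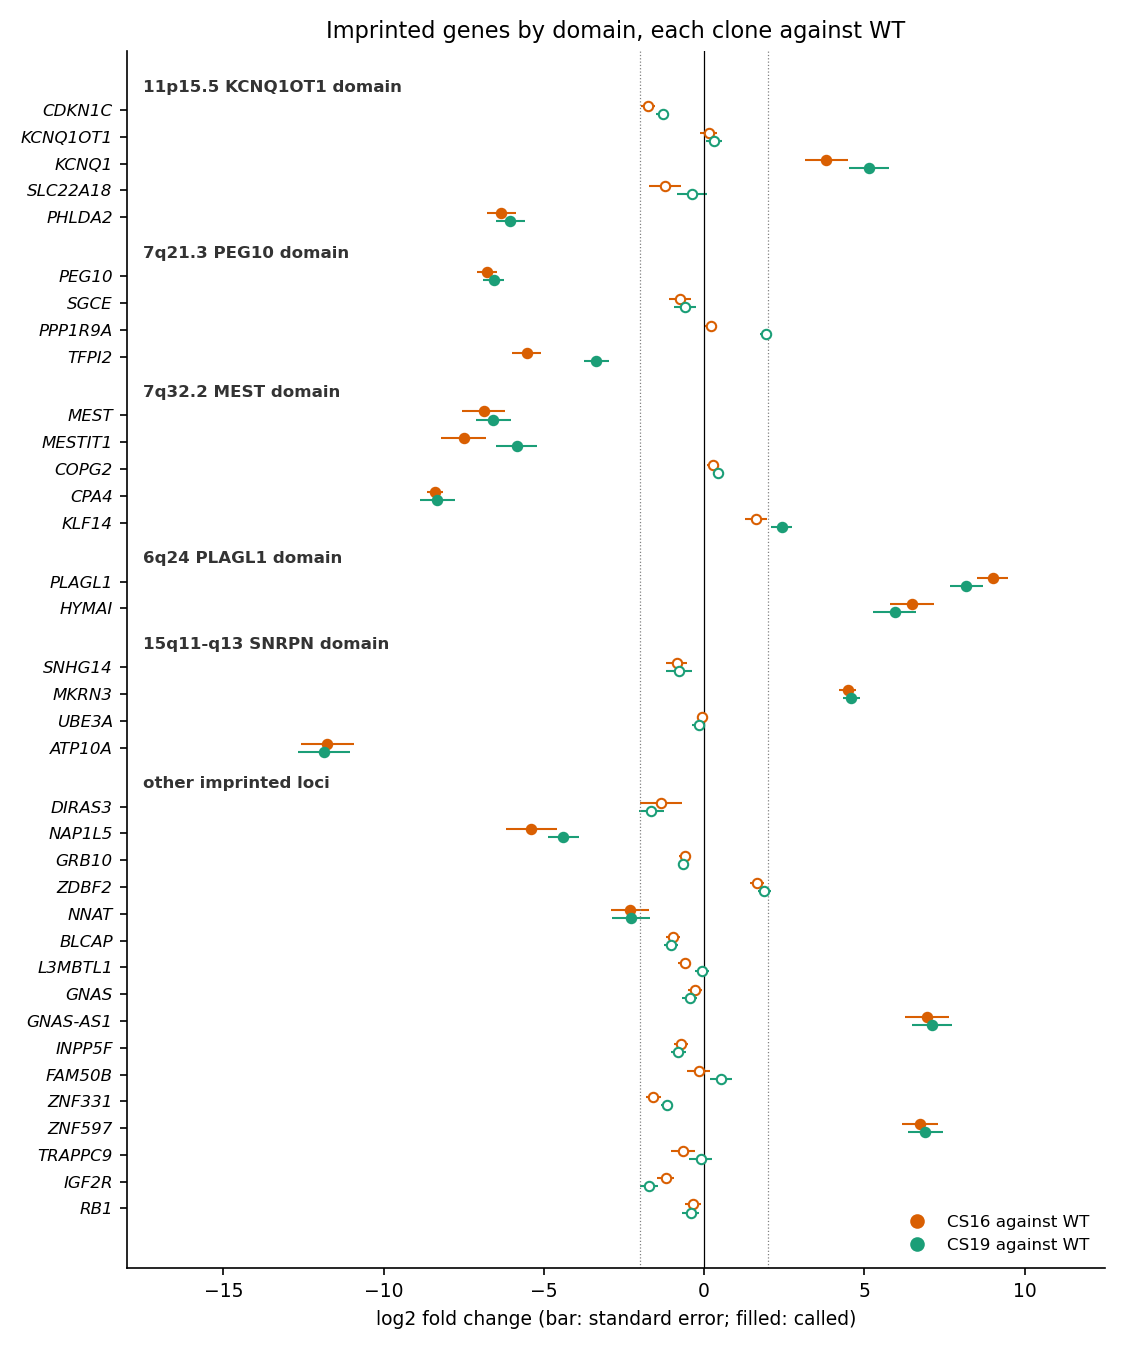
Log2 fold change of each tested imprinted gene in CS16 and in CS19 against WT, by chromosomal domain, with bars for the standard error, filled points for called genes and dotted lines at the cut-off of 2. The called genes of a domain lie on both sides of 0 in the *KCNQ1OT1* and *SNRPN* domains, where *KCNQ1* and *MKRN3* are higher and *PHLDA2* and *ATP10A* lower. In the *MEST* domain they do so in CS19 alone, where *KLF14* is called higher and *MEST*, *MESTIT1* and *CPA4* lower. Folds of genes with 0 counts in a group, such as *ATP10A*, depend on the prior count.

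All tested genes, imprinted or not, were read as well in a window of 500 kb on either side of each of the 4 expressed genes. This window was chosen after values had been seen. Of all genes tested, 15.3% were called lower in CS16 and 14.4% in CS19, and 11.8% and 12.0% were called higher. The share called in both clones was not counted. Around *PEG10* 4 neighbours were tested and 1 was called lower in both clones, *COL1A2*, a fibrillar collagen gene with a mean of 55.3 CPM in WT and 0 counts in the clones. Around *MEST* 13 were tested, with 6 called lower in both clones and 0 higher. The 6 were *CPA4*, *MESTIT1*, *LINC00513* and 3 genes without a symbol. Their start sites lay from 193 kb on one side to 450 kb on the other. Between them *COPG2* did not pass the test and *KLF14* had positive log2 fold changes. *CEP41*, also between them, had -0.60 in CS16 and -0.91 in CS19, past the adjusted p and under the fold cut-off. Around *PLAGL1* 6 were tested, with *HYMAI* called higher in both clones and 0 lower. Around *CDKN1C* 12 were tested, with *KCNQ1* called higher and *PHLDA2* lower. In KO against WT, *CPA4*, *MESTIT1* and *PHLDA2* passed the filter on low counts only through WT, and *KCNQ1* and *HYMAI* only through the clones. These had to differ, as had *COL1A2* with 0 counts in the clones. For the other neighbours this was not checked. *MESTIT1* cannot be told apart from unspliced *MEST*, and the 3 genes without a symbol start close together, between 427 and 450 kb from *MEST*.

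Factors that keep imprints were read from a list of 8 genes, of which 5 were tested and 0 were called by edgeR's quasi-likelihood test in KO against WT, with 4 at an unadjusted p below 0.05, 3 past the adjusted p and 0 called by DESeq2. Their median log2 fold change was -0.39. *DNMT1*, the enzyme that copies DNA methylation at replication, had a log2 fold change of -0.82 in KO against WT (SE 0.21, adjusted p = 0.00527), with 374, 785 and 387 CPM in WT and 281 to 304 CPM in the clones. WT library 2 was the highest of all, and in the separate clones the adjusted p was 0.0643 and 0.0676. Without WT library 2 it was -0.38 for CS16 and -0.37 for CS19 on the log2 scale. *UHRF1*, the partner of *DNMT1* at hemimethylated DNA, had -0.70 (SE 0.21, adjusted p = 0.0117), with 227, 478 and 245 CPM in WT. In the separate clones its adjusted p was 0.112 (CS16) and 0.0877 (CS19), and without WT library 2 its values were -0.24 and -0.30. *CTCF*, the insulator protein of the *H19* control region, rose by 0.58 (SE 0.13, adjusted p = 0.00196), from 87.1 to 96.6 CPM in WT to 120 to 152 CPM in the clones. *TRIM28* (-0.22) and *ZNF445* (-0.39), parts of the zinc finger complex that protects imprints, did not pass the test. *ZFP57*, *DPPA3* and *CTCFL* were at or near 0 and were not tested.

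The insulin-like growth factor (IGF) axis, through which *IGF2* acts, was read from a list of 16 genes, of which 15 were tested. *IGF2* was at 0 or 1 count, and *IGF1* was not tested. In each clone and in KO against WT 3 of the 15 were called higher and 7 lower, where 12.6% and 14.3% of all genes tested were called in KO against WT, and 5 were not called. Their median log2 fold change in KO against WT was -1.47 against -0.00 for all genes. *IGFBP1* and *IGFBP3* passed the filter on low counts through WT alone, and *IGFBP2*, *IGFBP5* and *IGF2BP1* through the clones alone, so that these 5 had to differ. All 7 genes of binding proteins, proteases and adaptors that fell and both binding proteins that rose were the same in CS16 and CS19.

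No receptor was called. *IGF1R*, the signalling receptor, had 862, 1959 and 585 counts in WT and between 1061 and 1664 in the clones, with a log2 fold change of -0.13 (adjusted p = 0.754) that became 0.62 (adjusted p = 0.0163) without WT library 2. *INSR* had -0.58 (adjusted p = 0.0133). *IGF2R*, the receptor that removes *IGF2* and is itself imprinted in the mouse, fell by 1.47 (SE 0.22, adjusted p = 0.000121), from 360, 575 and 297 CPM in WT to 176 ± 4.64 CPM (SD, n = 3) in CS16 and 122 ± 6.08 CPM (SD, n = 3) in CS19. Its clones did not overlap, with CS16 above CS19.

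The binding proteins split into a pair that rose and 4 that fell. *IGFBP2* was at 0, 0.285 and 0.154 CPM in WT, 49.1 to 57.4 CPM in CS16 and 83.3 to 90.7 CPM in CS19, a rise of 8.88 on the log2 scale (SE 0.54, adjusted p = 7.04e-08), and 9.73 without WT library 2 or 8.27 without WT library 1. *IGFBP5* had 2, 0 and 2 counts in WT and 46.9 to 56.7 CPM in the clones, a rise of 9.44 (SE 0.35, adjusted p = 1.82e-09). *IGFBP3*, the main carrier of IGFs in blood, fell by 8.59 (SE 0.34, adjusted p = 2.52e-09), from 48.8, 52.2 and 59.3 CPM in WT to between 0 and 0.245 CPM. *IGFBP1* had 364 to 421 counts in WT and 0 in all 6 clone libraries, which is at least 963-fold lower. *IGFBP4* was at 447, 2075 and 446 CPM in WT and 1.63 to 3.05 CPM in the clones, and its log2 fold change of -8.77 became -7.62 without WT library 2, while DESeq2 gave -8.73 with no adjusted p. *IGFBP6* fell by 5.68 (SE 0.24, adjusted p = 3.74e-09). *PAPPA*, the protease that cleaves *IGFBP4*, fell by 2.85 (SE 0.40, adjusted p = 7.27e-05).

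The receptor adaptor *IRS1* fell by 4.78 (SE 0.27, adjusted p = 3.26e-08), and its relative *IRS2* fell by 3.49 (SE 0.38, adjusted p = 9.61e-06). WT library 2 was the highest for both, with 273 CPM of *IRS1* against 125 and 127, and without it the value of *IRS2* was -2.64. *IGF2BP1*, a fetal protein that binds the *IGF2* and *H19* RNAs, had 0, 1 and 1 counts in WT and 4158 to 6632 in each clone library, a ratio of KO to WT of 6623 (95% counting interval 1833 to 54694). *IGF2BP3* rose by 1.61 (SE 0.13, adjusted p = 8.63e-07), under the fold cut-off, and *IGF2BP2* had -1.03 (adjusted p = 0.00673). WT held 71.4, 179 and 67.9 CPM of *IGF2BP2*, and its value in CS16 was -0.87 (adjusted p = 0.0979), or -0.29 without WT library 2. In CS19 it was -1.15 (adjusted p = 0.0413) and did not pass when any 1 CS19 library was left out.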

How the data were processed

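RNA-sequencing counts of 9 libraries (WT, CS16 and CS19, 3 each) were used. The authors prepared stranded, ribosomal RNA-depleted libraries, removed adapters with Trimmomatic 0.36, mapped reads to GRCh38 using *STAR* 2.7.2b and counted pairs with featureCounts (Subread 2.0.0) on gencode release 38, at a mapping quality of at least 30 and without using strand. Per the file headers, the deposited values are raw whole counts per gene, with pairs on several genes not counted. Versions of Trimmomatic and *STAR* come from the submitters' processing notes.

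Symbols were attached to 99.6% of 60708 gene IDs. After filtering with filterByExpr and TMM normalization, genes were tested with edgeR 4.0.16's quasi-likelihood test in R 4.3.3, separately for KO (CS16 and CS19 together) against WT, each clone against WT, and CS16 against CS19, with Benjamini-Hochberg adjustment over all genes tested. A call needed an adjusted p below 0.05 and an absolute log2 fold change of 2 or more, the study's cut-offs. CPM used effective library sizes. Replicates of a group differed beyond sampling noise, with a lowest chi-square per degree of freedom of 4.78. On counts simulated from each comparison, 200 of 200 genes changed by a log2 fold of 3 were recovered with 0 false calls. The simulation gave all genes the same small spread and changed only well-counted genes. It therefore does not cover genes near 0, or a library that stands apart as WT library 2 did. The 10 genes and all further lists were chosen with earlier results of these data known. The rule for named genes took all 10, the other genes of their domains, the 5 of largest change in each direction among other imprinted genes, and the genes of the IGF and imprint-maintenance lists called in both clones. A few others are named for context. Alternatives tried were DESeq2 1.42.0, RLE normalization, other filters and cut-offs, a replicate block, 1 fit over all groups, and leaving out each library.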

Additional observations from a re-analysis of the deposited data

Results flagged for a closer look

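By the adjusted p of the test of CS16 against CS19 itself, 17 genes of the lists differed between the clones, *PLAGL1* and *TFPI2* among them. Of all 17538 genes tested in this comparison, 27.4% passed. Of the further imprinted genes 10 of 27 tested passed, and of the IGF axis 6 of 12, with *IGF2R* in both lists. Among the 10 genes 1 of 3 tested passed, and of the imprint-maintenance list 1 of 5. The log2 fold change of *PLAGL1* was 0.84, with all 3 CS16 libraries above all 3 CS19 libraries, and that of *TFPI2* was -2.18, with all 3 CS16 libraries below all 3 CS19 libraries. Both changes were of the same direction in the clones against WT and differed in size.

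The same test passed the adjusted p for 15 other genes of the lists. CS16 was lower for *KCNQ1* (-1.33), *SLC22A18* (-0.84), *PPP1R9A* (-1.71), *KLF14* (-0.79), *ZDBF2* (-0.23), *L3MBTL1* (-0.53), *FAM50B* (-0.69), *TRAPPC9* (-0.56), *ZNF445* (-0.34), *IGFBP2* (-0.73) and *IGFBP4* (-0.65) on the log2 scale. It was higher for *IGF2R* (0.52), *IGF1R* (0.48), *IRS2* (0.66) and *IGF2BP1* (0.38). With 1 estimate of the spread over all 3 groups, 2 of the 17, *PPP1R9A* and *TFPI2*, were still past the adjusted p.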

How the results depend on the processing

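The 3 calls among the 10 genes (*PEG10*, *MEST* and *PLAGL1*) held against WT under every alternative run, and no log2 fold change of the 4 tested genes changed sign. Leaving out 1 library at a time left 3 of them called in every comparison with WT, 12 to 13 (KO), 11 to 12 (CS16) and 12 to 14 (CS19) of the other imprinted genes, and 5165 to 5963, 5176 to 5823 and 5167 to 5743 of all genes. Between the clones these numbers were 0, 1 and 224 to 258. The log2 fold change of *SNAI1*, 0.89, ranged from 0.62 to 1.40 when a library was left out and passed the adjusted p without WT library 2 (1.40, adjusted p = 0.0146), without CS16 library 1 (1.03, adjusted p = 0.0454) and with no filter on low counts (1.01, adjusted p = 0.0459).

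All genes called numbered 5272 in KO against WT, 5045 in CS16, 4990 in CS19 and 198 between the clones. With no filter they were 8662 (KO), 7528 (CS16), 7513 (CS19) and 352 (between the clones). With no fold cut-off they were 12506, 10342, 10014 and 4814, and with a fold cut-off of 1 on the log2 scale they were 9251, 8567, 8309 and 833. More genes pass by the construction of these settings. DESeq2 called 7662 (KO), 6880 (CS16), 6871 (CS19) and 215 (between the clones) of all genes. Other imprinted genes called numbered 13, 12, 13 and 1, and with no fold cut-off 23, 20, 21 and 10. With the cut-off of 1, 3 were called between the clones. With no fold cut-off 1 of the 10 genes, *PLAGL1*, passed between the clones, and in 1 fit over all groups its value was 0.84 (adjusted p = 0.0765).

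Replicate numbers in the labels did not pair the libraries: deviations of same-numbered libraries correlated between -0.21 and 0.19. With the replicate number as a block 5220 genes were called in KO against WT, and 3 of the 10 genes, and the block changed no call among the 10.

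Depth limits the 6 genes near 0, for which only upper limits can be given, and the size of the change of *PLAGL1*, which rests on 3 counts in WT.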
